A study of Mus musculus with 12 samples.

Results

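Col1a1, Col6a1, Fkbp10, Loxl3 and Ddr1 encode collagen chains, a collagen chaperone, an enzyme of the family that cross-links collagen, and a collagen receptor. They were chosen by symbol, and all 5 were found among the 658 genes of the table analysed here. Poly(A) RNA was sequenced from bone marrow mesenchymal stem cells (BMSCs), stromal cells of mouse marrow that adhere to plastic and can become osteoblasts, adipocytes or chondrocytes. A group of 6 libraries came from wild-type cells in osteogenic medium with α-asarone, a phenylpropanoid of Acorus plants that the sample labels spell α-Asaronel, and a group of 6 control libraries came from wild-type cells in the same medium without it. Both groups thus shared 100 nM dexamethasone, 10 mM sodium β-glycerophosphate, 50 μM ascorbic acid and 15% fetal bovine serum. Neither the dose nor the duration of α-asarone, the age and sex of the mice, nor separate animals or cultures for the libraries are given in the sources used here. The p-values therefore measure a spread between libraries that may be technical. The series title concerns healing of tendon to bone, and the comparison asks how α-asarone alters transcription in cells induced toward bone.

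Procollagen chains are folded in the endoplasmic reticulum, where prolines and lysines are hydroxylated by enzymes that need ascorbic acid and where chaperones hold the chains until the triple helix has formed. After secretion the ends of fibrillar procollagens are cut off, fibrils assemble, and lysyl oxidases oxidise lysines so that neighbouring molecules become covalently linked. Cells sense the product through discoidin domain receptors and integrins. In bone, type I collagen is the main organic component of the matrix on which mineral is laid down, while type VI collagen forms beaded filaments close to the cell surface.

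With α-asarone, Col1a1, Fkbp10 and Ddr1 were lower by 22.4% to 29.4%, and Col6a1 and Loxl3 were higher by 13.1% to 16.1%. All 5 genes passed the test, which is a Benjamini-Hochberg adjusted p under 0.05 with edgeR's quasi-likelihood test over all 512 genes tested. Of those 512 genes 30.3% passed, 12.9% higher and 17.4% lower. In each of the 5 genes the TPM values (transcripts per fixed total, a level corrected for transcript length) of the groups did not overlap, as in 14.3% of genes tested, 5.86% higher and 8.4% lower with α-asarone. The median absolute log2 fold change was 0.37 for the 5 genes and 0.08 for all genes tested. The 5 genes were chosen with earlier results of these data known, so these comparisons with all genes tested are a description only. When libraries were scaled by table totals 67.2% of all calls were rises, against 42.6% with TMM factors, and the directions and calls of the 5 genes were the same. In bulk RNA, fewer cells of a type and less RNA per cell cannot be told apart.

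**Figure D1:**
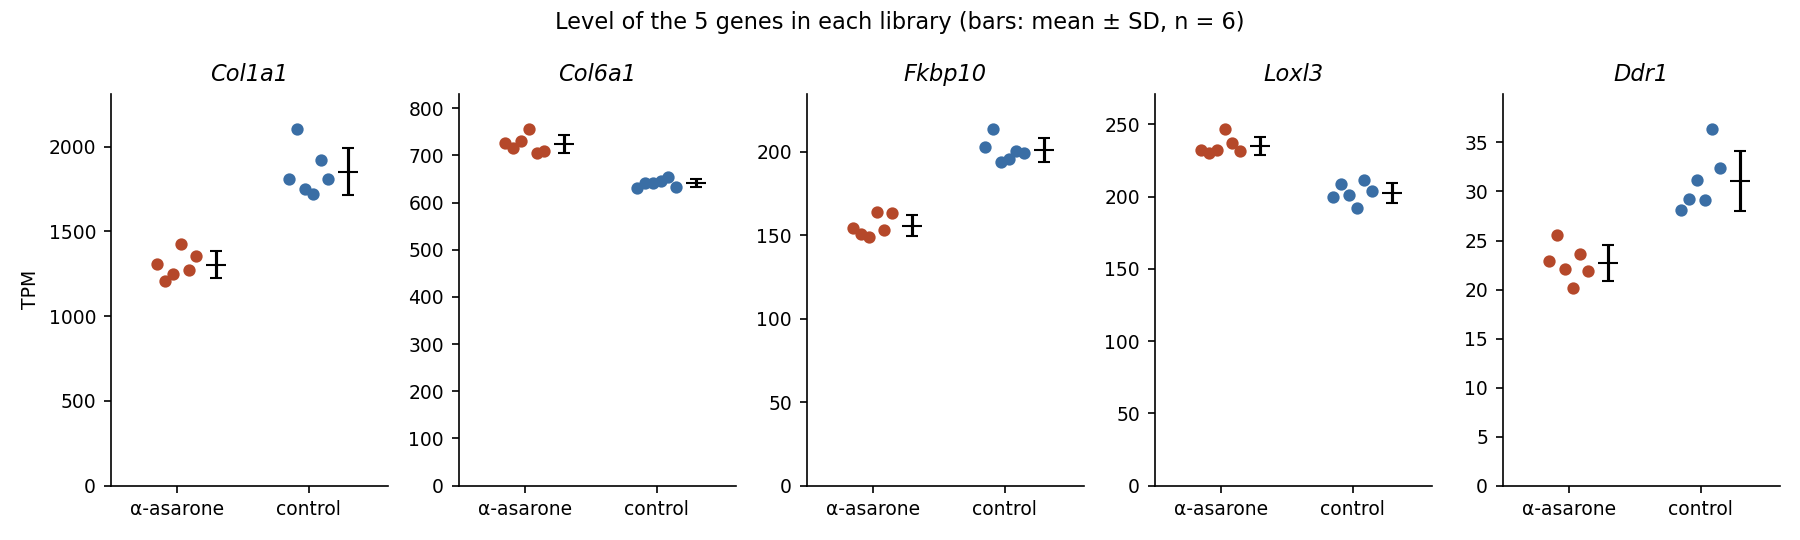
TPM of the 5 genes (vertical axes, from 0) in the 6 α-asarone libraries and the 6 control libraries, 1 point per library, with the mean and SD beside each group. The α-asarone points lie below all control points for Col1a1, Fkbp10 and Ddr1, and above all control points for Col6a1 and Loxl3.

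Col1a1 encodes the α1 chain of type I collagen, and it was the second most abundant of the 658 genes by TPM in every library. The gene (ENSMUSG00000001506) lies on chromosome 11 from 94936224 to 94953042, plus strand, on GRCm38. Its level ran from 1208 to 1428 TPM in α-asarone libraries, with a median of 1292, and from 1720.4 to 2103 TPM in control libraries, with a median of 1811. The highest α-asarone library, replicate 4, lay 293 TPM under the lowest control library, replicate 4. The α-asarone libraries averaged 1304 ± 78.8 TPM and the controls 1852 ± 141 TPM (SD, n = 6 each). On the log2 scale the change was −0.50 ± 0.04 (SE), between −0.58 and −0.42 at 95% confidence (edgeR adjusted p = 1.79e-11). At a mean of 81541 estimated counts per library, Col1a1 was the most deeply counted of the 5 genes. Control replicate 2 was the highest library, and without it the log2 fold change was −0.47. Under quantile scaling, which gives each rank the same value in every library, Col1a1 had a change of 0 by construction, since its rank did not vary.

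Col6a1 encodes the α1 chain of type VI collagen, a filament-forming collagen that is altered in inherited human muscle disorders. The gene (ENSMUSG00000001119) lies on chromosome 10 from 76708792 to 76726168, minus strand. Its level ran from 704 to 755 TPM in α-asarone libraries, with a median of 721, and from 630.3 to 654 TPM in control libraries, with a median of 642. The groups were 50.1 TPM apart at their nearest points. Of the 5 genes Col6a1 had the smallest spread between libraries, with a coefficient of variation of 2.53% with α-asarone and 1.33% in controls. Col6a1 rose by 13.1% (95% interval 9.41% to 17.0%), a log2 fold change of 0.18 ± 0.02 (SE, edgeR adjusted p = 5.10e-07). Under quantile scaling the change was 0.05 (limma adjusted p = 0.22) and did not pass. Its rank by TPM was 7 to 9 in every library, so that scaling could give it only the values of those ranks.

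Fkbp10 encodes FKBP65, a peptidyl-prolyl isomerase of the endoplasmic reticulum that binds procollagen, and in humans its loss causes brittle bones. The gene (ENSMUSG00000001555) lies on chromosome 11 from 100415697 to 100424824, plus strand. Its level ran from 149 to 164 TPM in α-asarone libraries, with a median of 154, and from 194 to 214 TPM in control libraries, with a median of 200.02. All 6 α-asarone libraries lay below every control, by at least 30.2 TPM. The fall amounted to −0.37 ± 0.03 in log2 units (SE, 95% interval −0.42 to −0.31, edgeR adjusted p = 8.22e-12). The gene overlaps Nt5c3b on the opposite strand over 2504 bases, and its estimated counts were not whole in 8 of 12 libraries, so reads may have been shared with another gene or transcript.

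Loxl3 encodes a lysyl oxidase-like enzyme that acts on matrix proteins, and mice without it have defects of the palate and spine. The gene (ENSMUSG00000000693) lies on chromosome 6 from 83034173 to 83052562, plus strand. Its level ran from 230.2 to 247 TPM in α-asarone libraries, with a median of 232, and from 192 to 212 TPM in control libraries, with a median of 203. The nearest libraries of the groups were 18.7 TPM apart. Loxl3 rose by 16.1% (95% interval 12.1% to 20.4%), a log2 fold change of 0.22 ± 0.03 (SE, edgeR adjusted p = 5.47e-08). Its estimated counts were not whole in any of the 12 libraries, and the gene overlaps Htra2 on the opposite strand over 1297 bases.

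Ddr1 encodes a receptor tyrosine kinase that collagen activates. The gene (ENSMUSG00000003534) lies on chromosome 17 from 35681567 to 35704621, minus strand. It was the least abundant of the 5 genes and the one with the widest spread, with a coefficient of variation of 8.11% with α-asarone and 9.75% in controls. Its level ran from 20.1 to 25.6 TPM in α-asarone libraries, with a median of 22.5, and from 28.1 to 36.4 TPM in control libraries, with a median of 30.2. The groups were 2.48 TPM apart at their nearest points, α-asarone replicate 2 and control replicate 1. Ddr1 fell by 28.7% on average, a log2 fold change of −0.49 ± 0.04 (SE, 95% interval −0.58 to −0.40, edgeR adjusted p = 3.88e-10). Its mean count was 666 per library, the lowest of the 5 genes.

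By mean TPM the order of the genes was the same in both groups, and among control libraries it varied at 1 place. With α-asarone it was Col1a1, Col6a1, Loxl3, Fkbp10 and Ddr1 from high to low, in each of the 6 libraries. In controls Loxl3 at 203 ± 6.88 TPM and Fkbp10 at 201 ± 6.95 TPM (SD, n = 6 each) were within their spread. Fkbp10 lay above Loxl3 in 3 of 6 control libraries and in 0 of 6 α-asarone libraries.

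Ratios between genes within a library do not depend on how libraries were scaled to each other. The 10 ratios among the 5 genes were compared between groups by an exact 2-sided permutation test of the log2 TPM ratio, over all arrangements of the libraries. The p-values were adjusted over the 130816 pairs that the 512 tested genes form, and 7 of the 10 ratios passed, against 23.2% of all pairs. In the same 7 ratios the groups did not overlap, against 13.7% of all pairs. The ratios share genes and are not independent of each other. Where a falling gene was set over a rising one, separate groups and the smallest p follow from the separate groups of each gene. Those ratios restate the results of the single genes and are not further support. Among the 7 only Col1a1 to Fkbp10 joined genes that changed in the same direction. For each of the 7 the exact p was 0.00216, the smallest this design can give, and the adjusted p was 0.0158.

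The ratio of Col1a1 to Col6a1 ran from 1.69 to 1.91 with α-asarone, with a median of 1.81, and from 2.67 to 3.28 in controls, with a median of 2.87. Relative to the filament chain the fibrillar chain thus stood at 0.624 of its control level, a log2 difference of −0.68 with a 95% interval from −0.80 to −0.57 by inversion of the permutation test. Relative to Loxl3, Col1a1 was at 5.55 ± 0.252 with α-asarone and 9.13 ± 0.491 in controls (SD, n = 6 each), a log2 difference of −0.72, the largest of the 10. Relative to Fkbp10, Col1a1 was at 8.01 to 8.72 with α-asarone and 8.78 to 9.85 in controls. Col1a1 therefore fell further than the chaperone gene, with a log2 difference of −0.14 (95% interval −0.20 to −0.07), and the nearest libraries of the groups were close, at 8.72 with α-asarone and 8.78 in controls.

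The ratio of Fkbp10 to Loxl3 was 0.662 ± 0.0233 with α-asarone and 0.992 ± 0.0323 in controls (SD, n = 6 each), a log2 difference of −0.58. Fkbp10 to Col6a1 was 0.215 ± 0.00877 with α-asarone and 0.314 ± 0.0120 in controls, a log2 difference of −0.54. Ddr1 fell relative to both rising genes, with a log2 difference of −0.62 against Col6a1 and −0.66 against Loxl3. Every α-asarone library was below every control library in these 4 ratios.

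Of the 10 ratios 3 did not pass. Loxl3 to Col6a1 was 0.325 ± 0.00685 with α-asarone and 0.316 ± 0.0101 in controls (SD, n = 6 each, exact permutation p = 0.121, adjusted p = 0.25), and the interval of its log2 difference was −0.01 to 0.09, which is a fold of 0.995 to 1.07. With coefficients of variation of 2.11% and 3.19%, with α-asarone and in controls, it was the steadiest of the 10 ratios in both groups. Col1a1 to Ddr1 (log2 difference −0.06, interval −0.29 to 0.18) and Fkbp10 to Ddr1 (log2 difference 0.08, interval −0.12 to 0.28) had intervals several times wider, so equal falls of these genes are not shown. Without α-asarone replicate 2 the difference of Col1a1 to Ddr1 was 0.0020.

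**Figure D2:**
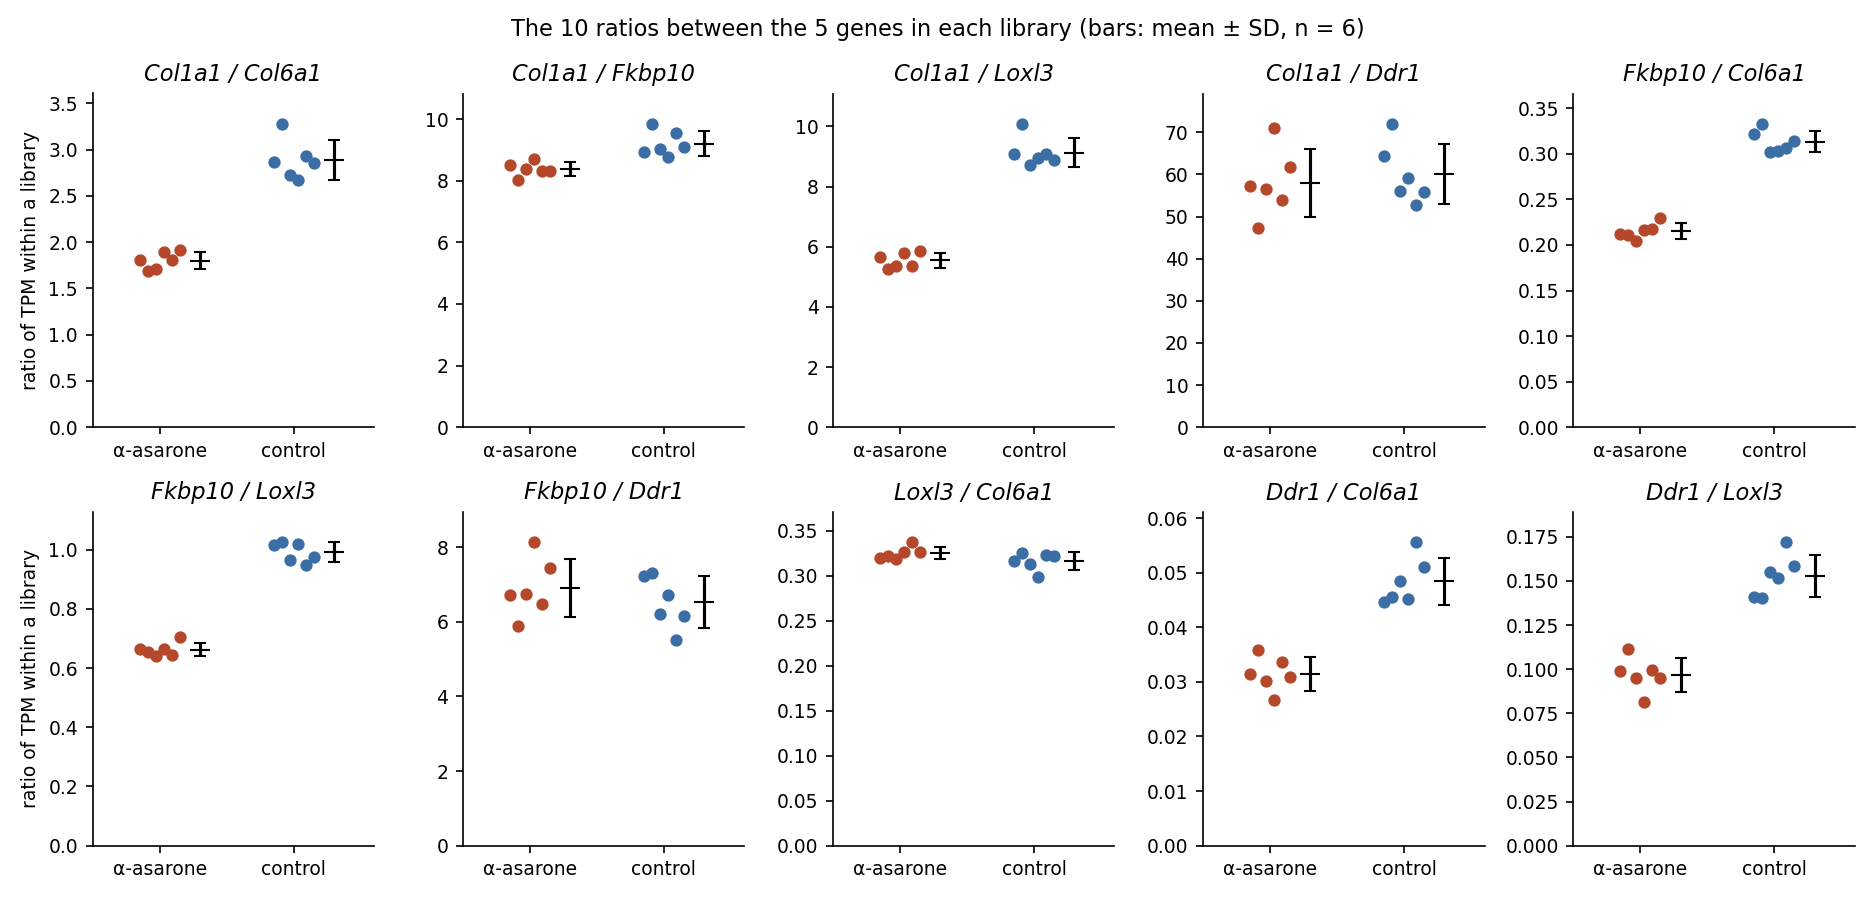
The 10 ratios of TPM between the 5 genes (vertical axes, from 0) in the 6 α-asarone libraries and the 6 control libraries, 1 point per library, with the mean and SD beside each group. The groups are apart in 7 panels, all with α-asarone lower, and overlap for Col1a1 / Ddr1, Fkbp10 / Ddr1 and Loxl3 / Col6a1.

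Libraries of 1 group also differed among themselves, and of the 10 pairs Col1a1 and Fkbp10 had the highest Pearson's r in either group. Over the 6 α-asarone libraries Pearson's r of their log2 TPM was 0.92 (exact permutation p = 0.0083) and Spearman's rho was 0.94 (exact permutation p = 0.017). Over the 6 control libraries r was 0.93 (exact permutation p = 0.014) and rho was 0.77 (exact permutation p = 0.10), below the rho of 0.89 for Col1a1 and Loxl3 there (exact permutation p = 0.033). Without the 2 libraries farthest from the median of Col1a1, r was 0.97 with α-asarone and 0.81 in controls. Among the 20 correlations computed, for 10 pairs in each group, 3 had an unadjusted p of r under 0.05, 2 an unadjusted p of rho under 0.05, and none passed after adjustment, with a lowest adjusted p of 0.14 for r and 0.33 for rho. The third by r was Col1a1 with Ddr1 with α-asarone, at an r of −0.88 that was −0.31 without the 2 farthest libraries, against an r of 0.11 in controls. Pooled correlations are not given, since the groups form separate clusters.

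**Figure D3:**
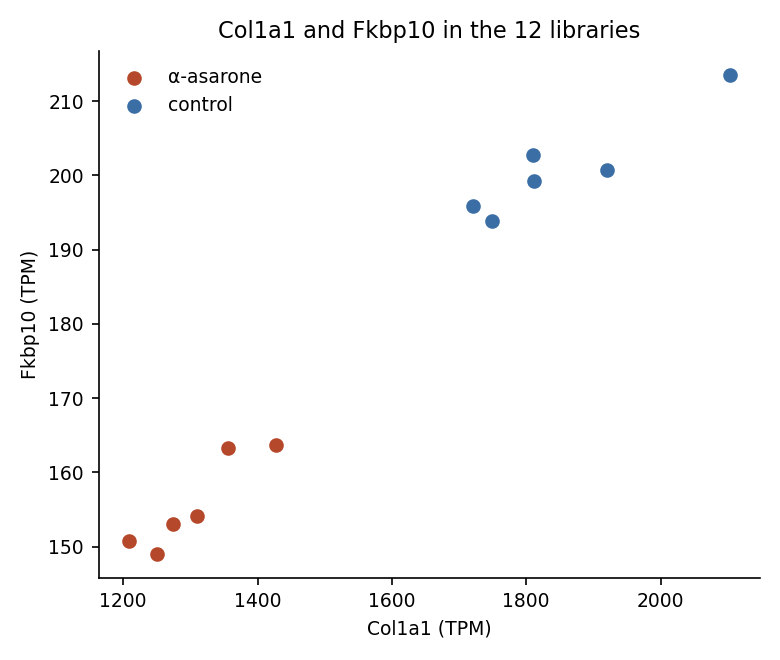
Col1a1 (horizontal axis, TPM) against Fkbp10 (vertical axis, TPM) in the 12 libraries, neither axis starting at 0. The α-asarone libraries lie between 1208 and 1428 TPM of Col1a1 and 149 and 164 TPM of Fkbp10, apart from the controls on both axes, and within each group libraries high in one gene tend to be high in the other.

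A likeness to other genes was taken as Pearson's r over 12 libraries between deviations of log2(TPM + 1) from the group mean, which removes the difference between groups. It is a description, and the libraries share their depth and scaling. The gene most like Col1a1 among the 511 others was Fkbp10, at 0.91, and the gene most like Fkbp10 was Col1a1. Next for Col1a1 were Ssr4, which encodes a subunit of the translocon-associated complex of the endoplasmic reticulum, at 0.89, and the cyclin gene Ccnd2, at 0.80. Next for Fkbp10 were Atp5d at 0.83 and Prkcsh, which encodes the beta subunit of the glucosidase of glycoprotein folding, at 0.74. None of Ssr4, Ccnd2, Atp5d and Prkcsh passed the test between groups, with log2 fold changes of −0.09, −0.02, −0.01 and 0.01. Tubgcp3, Ccdc97 and Coq8b were most like Col6a1, at 0.79 to 0.83. Epn2, Qtrt1 and Use1 were most like Loxl3, at 0.78 to 0.85, and Hoxc11, Nosip and Pcbp3 most like Ddr1, at 0.76 to 0.83. Of these 9 genes Epn2 (log2 fold change −0.10, edgeR adjusted p = 0.0090) and Hoxc11 (−0.38, edgeR adjusted p = 0.010) passed.

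The estimated count divided by the TPM of a gene follows the transcript length that the authors' quantification assigned to it. Taken relative to Col6a1, this quotient was 1.446 for Col1a1 in every library, the same as the ratio of the longest protein-coding transcripts in GENCODE M21, 5930 and 4100 bases. For Loxl3 it was 0.999 to 1.000 and for Fkbp10 0.63 in each library, again close to the ratios of the longest transcripts. For Ddr1 it ran from 0.632 to 0.823 with α-asarone and from 0.656 to 0.766 in controls, a range of 30.2% of the lowest value, and below the 0.945 that its longest transcript would give. Ddr1 has 11 protein-coding transcripts of 526 to 3874 bases in GENCODE M21, and the promoter table of RefSeq on GRCm38.p6 lists 4 of its start sites, 4009 bases apart at the most, against 1 of Col6a1.

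The quotient of Ddr1 averaged 0.684 ± 0.0756 with α-asarone and 0.701 ± 0.0468 in controls (SD, n = 6 each, exact permutation p = 0.593). Replicate 4 with α-asarone had the highest quotient, 0.823, and the lowest Ddr1 level, 20.1 TPM, at 519 counts. From estimated counts in place of TPM the log2 difference of Col1a1 to Ddr1 was −0.015 and that of Fkbp10 to Ddr1 was 0.12, and neither passed. With limma the change of Ddr1 was −0.43 on the log2(TPM + 1) scale (adjusted p = 6.87e-05) and −0.45 on the log2(TPM + 0.1) scale (adjusted p = 6.67e-05), and passed on both. Reads of its antisense neighbour Gm4577, which overlaps it over 726 bases, cannot be told from its own if strand was not used. The estimated counts of Ddr1 were whole in every library.

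**Figure D4:**
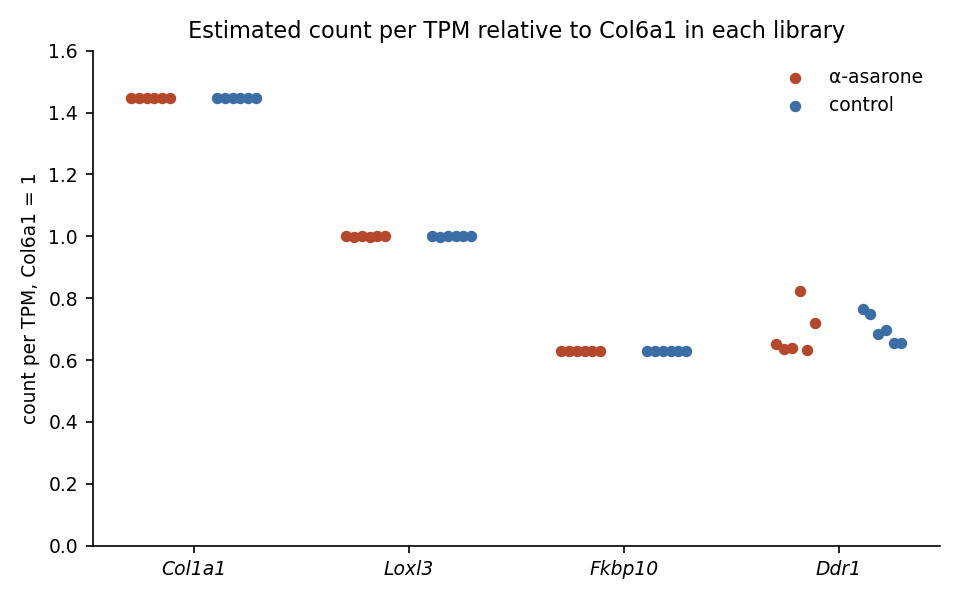
Estimated count per TPM relative to that of Col6a1 (vertical axis, Col6a1 = 1) for the other 4 genes, 1 point per library, α-asarone on the left of control for each gene. Col1a1, Loxl3 and Fkbp10 sit at one value in all 12 libraries, while Ddr1 spreads from 0.632 to 0.823 with overlapping groups.

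Other genes of collagen handling were counted from 9 lists, of collagens, folding, secretion and cleavage, cross-linking, receptors, degradation, fibril-associated matrix and regulators. Of their 167 genes 13 were in the table, the 5 genes above and 8 others, and the rest were not analysed here. Among the 8 others, all tested, 2 were higher, 3 were lower and 3 did not pass, where 12.9% of all genes tested were higher and 17.4% lower. Their median log2 fold change was −0.02, against 0.00 for all genes tested. The lists for secretion and cleavage and for fibril-associated matrix had no gene in the table.

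The folding list had 3 tested genes of 27, and all 3 were lower, against 17.4% of all genes tested. Besides Fkbp10 they were Fkbp7, which encodes another isomerase of the endoplasmic reticulum, and Calr, which encodes calreticulin, a chaperone of glycoproteins in general. Fkbp7 ran from 73.3 to 97.5 TPM in α-asarone libraries, with a median of 79.9, and from 86.7 to 99.7 TPM in control libraries, with a median of 96.7. These groups overlapped, and the change was −0.23 ± 0.05 on the log2 scale (SE, edgeR adjusted p = 0.0018). Calr ran from 960.2 to 1010 TPM in α-asarone libraries and from 1034 to 1083 TPM in control libraries, and it fell by 0.09 on the log2 scale (edgeR adjusted p = 0.0060). With table totals the change of Calr was −0.05 (edgeR adjusted p = 0.11), and under quantile scaling it was −0.03 (limma adjusted p = 0.42).

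The other collagen gene in the table was Col18a1, which encodes a basement membrane collagen that carries endostatin. It ran from 43.2 to 54.6 TPM in α-asarone libraries and from 31.8 to 38.4 TPM in control libraries, without overlap, and rose by 0.52 ± 0.04 on the log2 scale (SE, edgeR adjusted p = 1.46e-10). The cross-linking and receptor lists had only Loxl3 and Ddr1 in the table. Of the 3 tested genes of collagen degradation 0 passed with edgeR, limma on log2(TPM + 1) or DESeq2, and 0 had an unadjusted p under 0.05 with any of these, where edgeR called 30.3% of all genes tested. Timp1, which encodes a metalloproteinase inhibitor, averaged 786 ± 72.1 TPM in α-asarone libraries and 809 ± 37.1 TPM in controls (SD, n = 6 each). Mmp14, which encodes a membrane-bound collagenase, averaged 359 ± 8.01 TPM in α-asarone libraries and 357 ± 10.1 TPM in controls (SD, n = 6 each).

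Of the regulator list 2 of 26 genes were in the table. Tgfb1, which encodes a cytokine that induces collagen synthesis, ran from 178 to 193 TPM in α-asarone libraries and from 158 to 167 TPM in control libraries, and rose by 0.17 on the log2 scale (edgeR adjusted p = 1.36e-05). Sp1, which encodes a transcription factor that binds collagen promoters, ran from 39.9 to 42.4 TPM in α-asarone libraries and from 43.9 to 49.7 TPM in control libraries, and fell by 0.07 on the log2 scale (edgeR adjusted p = 0.028). That call was lost with table totals (adjusted p = 0.41), without the filter on low TPM (adjusted p = 0.058) and in 7 of 12 fits that left out 1 library, namely α-asarone replicates 3, 4 or 5 or control replicates 1, 4, 5 or 6 (adjusted p from 0.0507 to 0.0785).

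**Figure D5:**
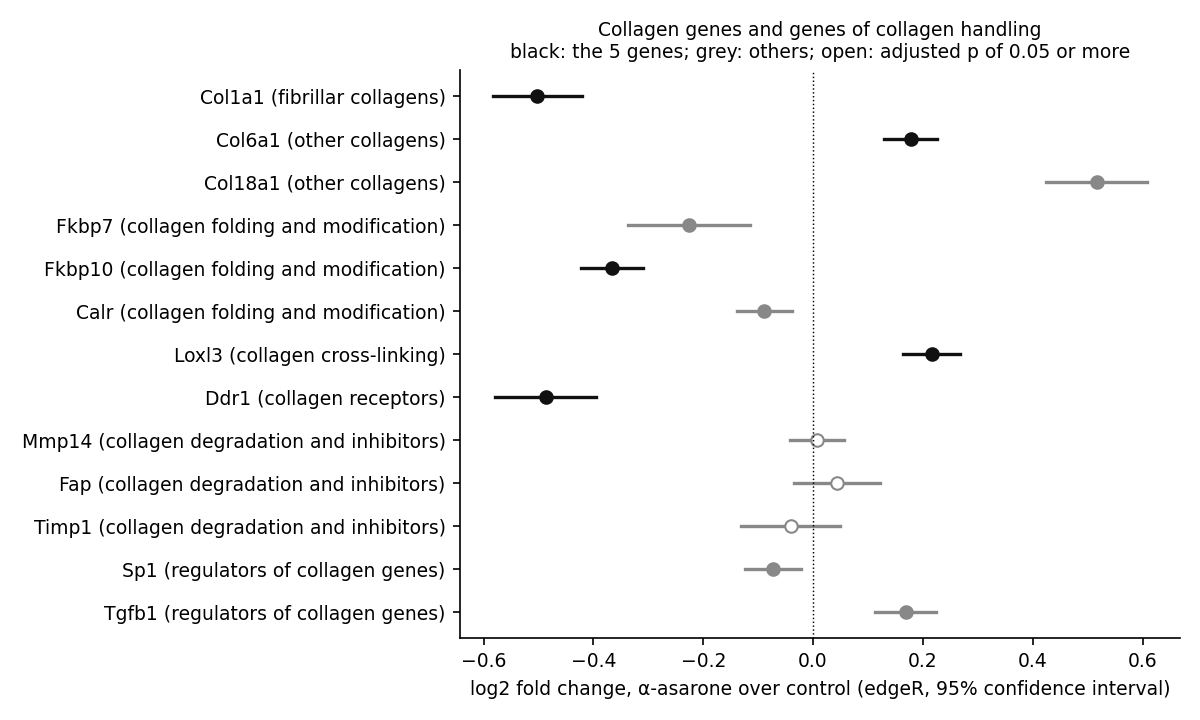
Log2 fold change of α-asarone over control with its 95% confidence interval (horizontal axis) for the 13 tested genes of the collagen lists, black for the 5 genes and grey for the 8 others, with filled points for those that passed. Col18a1, Loxl3, Col6a1 and Tgfb1 lie to the right of 0, Col1a1, Ddr1, Fkbp10, Fkbp7, Calr and Sp1 to the left, and the 3 degradation genes have intervals across 0.

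Some marker genes of several cell types also differed between the groups. Of 14 macrophage and leukocyte markers 4 were in the table, and their summed TPM ran from 967 to 1123 with α-asarone and from 834 to 923 in controls. Each of the 4 was expressed in both groups, the least abundant, Clec10a, at no less than 97.0 TPM in any library. Whether leukocytes were present in the cultures was not tested. The 4 genes did not go one way: Cfp (log2 fold change 0.51) and Spi1 (0.19) rose, Itgb2 (−0.10) fell, and Clec10a (0.11, edgeR adjusted p = 0.072) did not pass. Cfp averaged 469 TPM in α-asarone libraries and 332 TPM in controls, and held most of the difference of the sum. The sum of 5 of 9 adipocyte markers ran from 423 to 538 with α-asarone and from 361 to 417 in controls. Most of that sum was Cd36, which ran from 315 to 428 TPM with α-asarone and from 282 to 334 TPM in controls, so that the groups overlapped, and rose by 0.24 on the log2 scale. Angptl4 (log2 fold change 1.44), Plin4 (0.43) and Lipe (0.40) also rose, and Pparg (−0.05, edgeR adjusted p = 0.43) did not pass. Cnn1, the 1 smooth muscle and contractile marker of 7 in the table, ran from 6.82 to 9.97 TPM with α-asarone and from 21.8 to 30.3 TPM in controls. Acp5, the 1 osteoclast marker of 7, ran from 25.1 to 38.4 TPM with α-asarone and from 57.9 to 78.4 TPM in controls. Neither gene had overlapping groups. The log2 fold change was −1.71 for Cnn1 (edgeR adjusted p = 1.91e-14) and −1.14 for Acp5 (edgeR adjusted p = 5.21e-13). Sox9, the 1 chondrocyte marker of 5, ran from 7.15 to 8.60 TPM with α-asarone and from 7.28 to 10.96 TPM in controls. These groups overlapped, and Sox9 fell by 0.26 on the log2 scale (edgeR adjusted p = 0.0089).

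Of 13 osteoblast and osteocyte markers 3 were analysed here, Sost, Fgf23 and Dlx3, with Sost at 0 in every library. Their sum was 1.37 to 2.76 TPM with α-asarone and 1.44 to 2.37 TPM in controls. Runx2, Sp7, Alpl and Bglap were among those not analysed. The sum therefore does not give the level of osteoblast genes in general. Lymphocyte markers summed to at most 0.099 TPM, with Cd3g and Vpreb3 at 0 in every library, and endothelial markers to at most 2.11 TPM. Mesenchymal stromal, tendon and erythroid markers were not analysed here, so the labelled cell type was not checked against its own surface markers. The part of these markers in the changes of the 5 genes was not tested.

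Total estimated counts over the 658 genes were 843595 to 1224256 per library. Control replicate 2 had the lowest total, and the calls and directions of the 5 genes were the same without it.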

How the data were processed

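Per the file headers, the table deposited by the authors gives TPM and estimated counts for each gene in each library. TPM is scaled over all genes of a library, and the 658 genes here hold 5.36% to 5.67% of it, so table totals are not library depths. The submitters' processing notes name GRCm38 and mm10, while neither the aligner nor the quantification software is given in the sources used here. Deposited estimated counts were rounded to whole numbers and tested with edgeR 4.0.16 (glmQLFit and glmQLFTest, TMM factors 0.976 to 1.03, no covariate) in R 4.3.3, on the 512 genes that reached 1 TPM in 6 or more libraries. Log2 fold changes and differences are α-asarone minus control. Ratios are of TPM without a pseudocount and were tested in Python 3.11.15 with numpy 2.4.6. Coordinates and transcripts are from GENCODE M21 on GRCm38, matched by identifier.

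Groups and replicate numbers come from the sample titles. The 5 genes, the lists and the tests were chosen with earlier results of these data known. From each list up to 4 passing genes of largest change are named, or up to 2 of highest TPM if none passed, and the 3 genes most like each of the 5 are named. Replicates of a group differed beyond sampling noise in all 30 pairs (chi-square per degree of freedom 2.24 to 11.2), so none was counted as a copy. The edgeR test was checked on simulated counts. Alternatives were other scalings and filters, limma 3.58.1 on log2 TPM with pseudocounts of 0.1, 1 and 5, DESeq2 1.42.0, the replicate number as a block, leaving out Apoe, and leaving out each library.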

Additional observations from a re-analysis of the deposited data

Results flagged for a closer look

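In each group of 6 libraries the highest and lowest values of the named genes, of the 10 ratios and of the Ddr1 quotient of count and TPM were compared with their nearest neighbours. Of 46 groups of values 4 held a library whose gap exceeded the critical value of Dixon's test, where chance alone gives about 2.3. In 3 of the 4 the library was control replicate 2, which also had the lowest total count. There the ratio of Col1a1 to Loxl3 was 10.1, where the remaining controls ran from 8.70 to 9.08, all of them above every α-asarone library, and the log2 difference was −0.69 without that library against −0.72 with it. For Fkbp7 this library had 86.7 TPM, where the remaining controls ran from 96.3 to 99.7 TPM, and its log2 fold change was −0.25 without that library. For Sp1 it had 49.7 TPM, where the remaining controls ran from 43.9 to 45.03 TPM, and its log2 fold change was −0.09 without that library. The ratio of Fkbp10 to Loxl3 was 0.706 in α-asarone replicate 6 and 0.641 to 0.664 in the remaining α-asarone libraries, and the log2 difference was −0.60 without that library against −0.58 with it.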

How the results depend on the processing

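Of 110 alternative values for the 5 genes 108 kept the direction and the call. The exceptions were both under quantile scaling with limma, Col6a1 at 0.055 (adjusted p = 0.22) and Col1a1 at 0, which ranks second in every library and so has the same scaled value in each by construction. Outside quantile scaling log2 fold changes ran from −0.53 to −0.46 for Col1a1, 0.17 to 0.22 for Col6a1, −0.38 to −0.32 for Fkbp10, 0.20 to 0.26 for Loxl3 and −0.51 to −0.38 for Ddr1. Of 140 alternative values for the ratios, from estimated counts, from log2(TPM + 1) and with each library left out, 139 kept their direction and call, and Col1a1 to Ddr1, which did not pass, ran from −0.116 to 0.0020 with 1 library left out and turned sign without α-asarone replicate 2. Genes changed numbered 155, with 116 to 189 under the alternatives and 138 to 152 with each library left out. Mmp14, which did not pass, turned to −0.029 under quantile scaling and ran from −0.0032 to 0.018 with 1 library left out. For Calr and Sp1 a call was lost in 11 values, given above for both, and Sp1 was at −0.030 with table totals and −0.12 with limma on log2(TPM + 1). Col6a1 ranked between 7 and 9 in every library, so quantile scaling could give it only the values of those ranks. The cause of the changed calls of Calr and Sp1 was not tested. Libraries that share a number across groups correlated at −0.003 to 0.128 in their deviations from the group means, with 2 of 6 closest to their own number, so the numbers were not taken as pairs. With the replicate block 168 genes changed and the log2 fold change of Col1a1 was −0.50. Mean counts ran from 666 for Ddr1 to 81541 for Col1a1, and the SE was 0.04 for both. The part of depth in their precision was not tested.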
